A study of Mus musculus with 47 samples.

Results

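Retinas of mice aged 20 months (aged) were compared with retinas of mice aged 6 weeks (young) at ZT2, which is 2 h after the lights came on. All mice were C57BL/6, a common inbred laboratory strain, and lived under 12 h of light and 12 h of darkness. No genotype, drug or diet distinguished the groups, and the labels do not give their sex. At this time 4 mice of each age gave 1 right eye each, the retina was dissected under dim red light, and polyadenylated RNA was sequenced from each retina separately. These 8 libraries belong to a series of 47 that covers the same ages at 6 times of day. A gene was included where it reached at least 0.5 RPKM (reads per kilobase of gene model per M reads, where M stands for mega) in 4 or more of the 8 libraries, which left 14406 of 57180 genes, of which 12091 are protein coding. All 8 libraries reached that level for 12578 genes. A further 16 genes passed through the aged libraries alone and 6 through the young libraries alone. In all 8 libraries the Y-linked gene Ddx3y was at 6.10 to 10.3 RPKM. Xist, a transcript of females, was at most at 0.0056 RPKM, so the values are those of males.

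The retina turns light into nerve signals in layers. Rods and cones capture photons, bipolar cells carry their output inwards, horizontal and amacrine cells shape it, and ganglion cells send it to the brain, while Müller glia span all layers and support the neurons. In the first hours of light, photoreceptors shift from their night state to their day state and the retinal pigment epithelium behind them engulfs shed outer segment tips. Ageing of the mouse retina is known for thinning synaptic layers, a more reactive glia and higher expression of immune genes, with most photoreceptors still in place.

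The aged libraries differed among themselves more than the young ones. Library totals, recovered from the RPKM values, were 35.3 to 45.8 M reads. The first principal component of the log2 values held 56.9% of the variance and placed aged mice 3 and 4 at 38.6 and 39.2, aged mice 1 and 2 at -35.8 and -15.4, and the young mice between -19.2 and -1.06. Most genes with the largest positive weights on this component were lens genes, led by Crygb (0.0642) and Crygc (0.0553). Those with large negative weights included neuronal genes such as L1cam (-0.0408) and Scn1a (-0.0372). The split between aged mice 1 and 2 and aged mice 3 and 4 also appeared in markers of the inner retina. The mean log2 level (log2 of RPKM + 0.5, used throughout) of 14 ganglion cell markers was 4.87, 4.35, 3.02 and 3.12 in aged mice 1 to 4 and 3.94, 3.84, 4.06 and 4.61 in young mice 1 to 4. For 13 amacrine cell markers it was 3.64, 3.46, 2.44 and 2.35 in aged and 3.18, 3.21, 3.23 and 3.47 in young mice. Aged mice 3 and 4 were thus below every young mouse, and aged mouse 1 was above every young mouse in both lists. Rod phototransduction genes ran the other way, with 8.82, 9.10, 9.41 and 9.48 in aged and 9.13, 9.07, 9.12 and 8.97 in young mice. The median standard deviation of a gene between mice was 0.194 log2 units in aged and 0.115 in young, and it was larger in aged for 75.1% of genes. In bulk tissue, fewer cells of a type and less RNA per cell cannot be told apart.

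**Figure D1:**
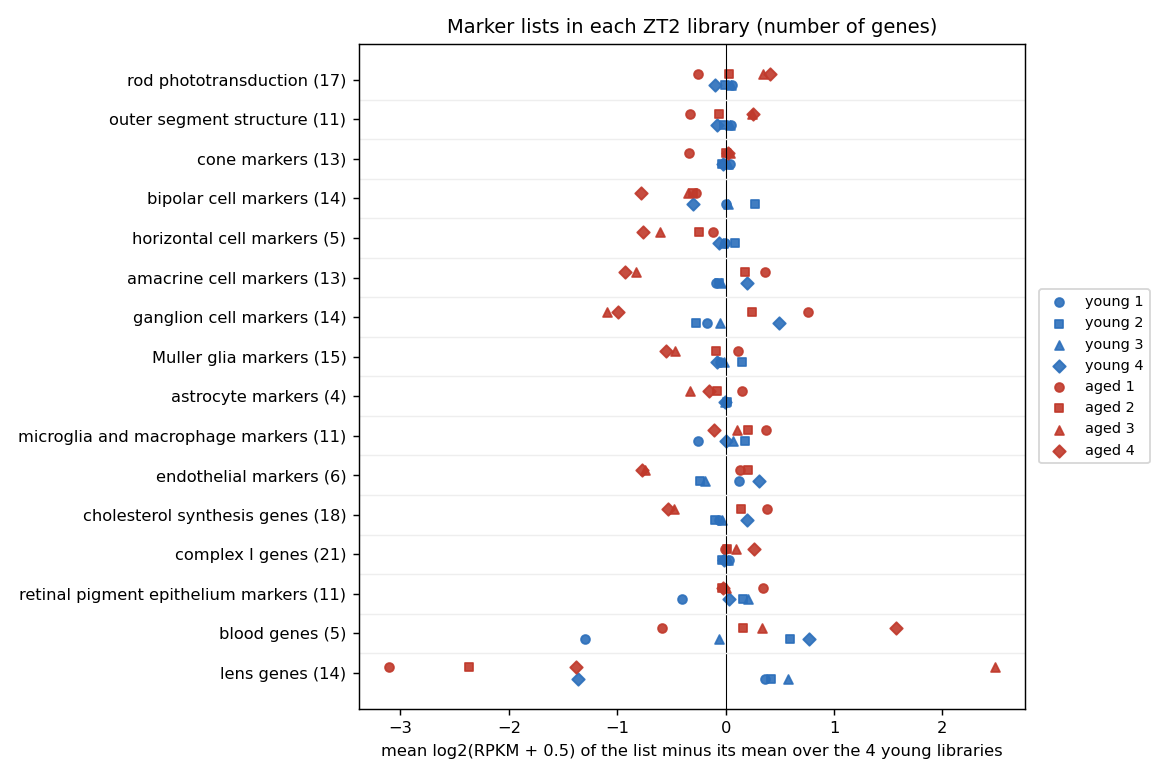
Mean log2(RPKM + 0.5) of each marker list in each ZT2 library, minus the mean of the 4 young libraries (horizontal axis, log2 units), with the number of genes in parentheses. Young mice are blue and aged mice red, with a symbol for each mouse. Aged mice 3 and 4 lie to the left of all young mice for ganglion and amacrine cell markers, and all 4 aged mice lie below 0 for bipolar and horizontal cell markers.

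Few genes passed the test for age at ZT2, and nearly all of them were higher in the aged retina. At a limma adjusted p (Benjamini-Hochberg) under 0.05 and a fold over 1.5, 13 genes were called, or 0.0902% of the 14406 tested. Of these, 12 rose (0.0833%) and 1 fell (0.00694%). Among those that rose, ENSMUSG00002076581 met the inclusion level through the aged libraries alone. With that level required in all 8 libraries, 12 genes were called, 11 of them higher. They encode a beta-galactosidase-like protein, a G protein subunit, a cell death inhibitor, genes linked to cilia and membranes, and DNA-binding proteins, beside noncoding transcripts. Beneath this threshold many more genes leaned one way. An unadjusted p under 0.05 was found for 1117 genes (7.75%), of which 675 were lower (4.69%) and 442 higher (3.07%) in aged. The ranges of the groups of mice did not overlap for 324 genes with aged higher (2.25%) and 486 with aged lower (3.37%). The median log2 difference over all genes was -0.05.

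**Figure D2:**
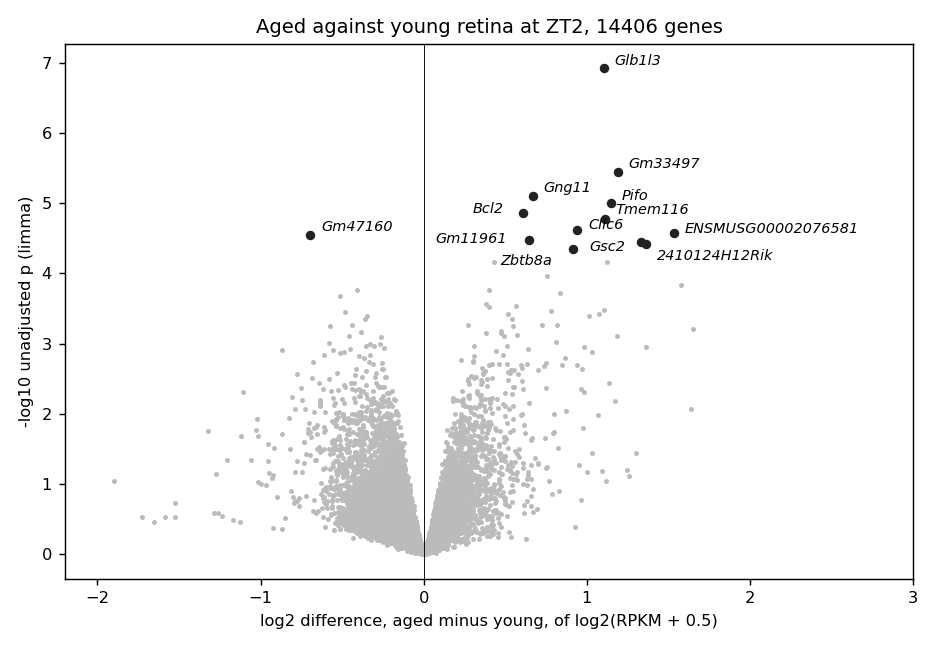
Log2 difference of aged minus young (horizontal axis) and -log10 of the unadjusted limma p (vertical axis) for 14406 genes at ZT2, 1 point per gene. Black points are the 13 called genes, of which 12 lie to the right of 0 and Gm47160 to the left.

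Glb1l3 (ENSMUSG00000031966), which encodes a protein related to lysosomal beta-galactosidase, had the smallest p-value. Its level was 40.2, 40.4, 35.3 and 38.5 RPKM in aged mice 1 to 4 and 19.6, 17.1, 17.01 and 17.2 RPKM in young mice 1 to 4. The lowest aged mouse was well above the highest young mouse, and the split between aged mice 1 and 2 and aged mice 3 and 4 was not seen in it as a gap. The log2 difference was 1.10 ± 0.07 (SE), a limma adjusted p of 0.00173.

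A G protein subunit and a survival factor rose by smaller amounts with little spread. Gng11 (ENSMUSG00000032766) encodes a gamma subunit of heterotrimeric G proteins and was at 23.3, 20.3, 22.04 and 22.4 RPKM in aged mice 1 to 4 and 13.4, 13.5, 15.1 and 12.8 RPKM in young mice 1 to 4. Bcl2 (ENSMUSG00000057329), the founding inhibitor of mitochondrial cell death, was at 5.23, 5.70, 5.51 and 5.48 RPKM in aged mice 1 to 4 and 3.68, 3.45, 3.31 and 3.27 RPKM in young mice 1 to 4. In neither gene did the groups overlap, and the aged mice lay within about as narrow a band as the young. Log2 differences were 0.67 ± 0.07 for Gng11 and 0.61 ± 0.07 for Bcl2 (SE), with limma adjusted p of 0.0361 and 0.0401.

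Genes linked to cilia and membranes were called at low levels. Pifo (ENSMUSG00000010136), which takes part in the disassembly of primary cilia, was at 4.30, 3.59, 3.83 and 4.46 RPKM in aged mice 1 to 4 and 1.56, 1.72, 1.80 and 1.16 RPKM in young mice 1 to 4. Tmem116 (ENSMUSG00000029452), a membrane protein, was at 3.42, 3.65, 3.14 and 2.45 RPKM in aged mice 1 to 4 and 1.11, 1.43, 1.08 and 1.13 RPKM in young mice 1 to 4. Clic6 (ENSMUSG00000022949), of the chloride intracellular channel family, was at 3.33, 2.89, 2.54 and 2.99 RPKM in aged mice 1 to 4 and 1.54, 1.19, 1.35 and 1.09 RPKM in young mice 1 to 4. All aged mice exceeded all young mice in each of the genes, and aged mouse 4 was the highest of its group for Pifo but the lowest for Tmem116. The log2 differences were 1.15 ± 0.12, 1.11 ± 0.13 and 0.94 ± 0.11 (SE), and the limma adjusted p were 0.0361, 0.0404 and 0.0454.

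Among DNA-binding proteins, a homeobox gene and a zinc finger gene were called. Gsc2 (ENSMUSG00000022738), a relative of the homeobox gene goosecoid, was at 10.8, 12.04, 13.9 and 14.2 RPKM in aged mice 1 to 4 and 3.32, 4.43, 5.93 and 5.66 RPKM in young mice 1 to 4. Zbtb8a (ENSMUSG00000028807), a zinc finger protein with a BTB domain, was at 3.74, 3.00, 2.61 and 2.77 RPKM in aged mice 1 to 4 and 1.53, 1.18, 1.43 and 1.30 RPKM in young mice 1 to 4. Gsc2 was highest in aged mice 3 and 4, whereas Zbtb8a was highest in aged mouse 1, and neither gene had overlapping groups. The log2 difference was 1.33 ± 0.17 for Gsc2 and 0.91 ± 0.12 for Zbtb8a (SE), with limma adjusted p of 0.0454 and 0.0496.

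**Figure D3:**
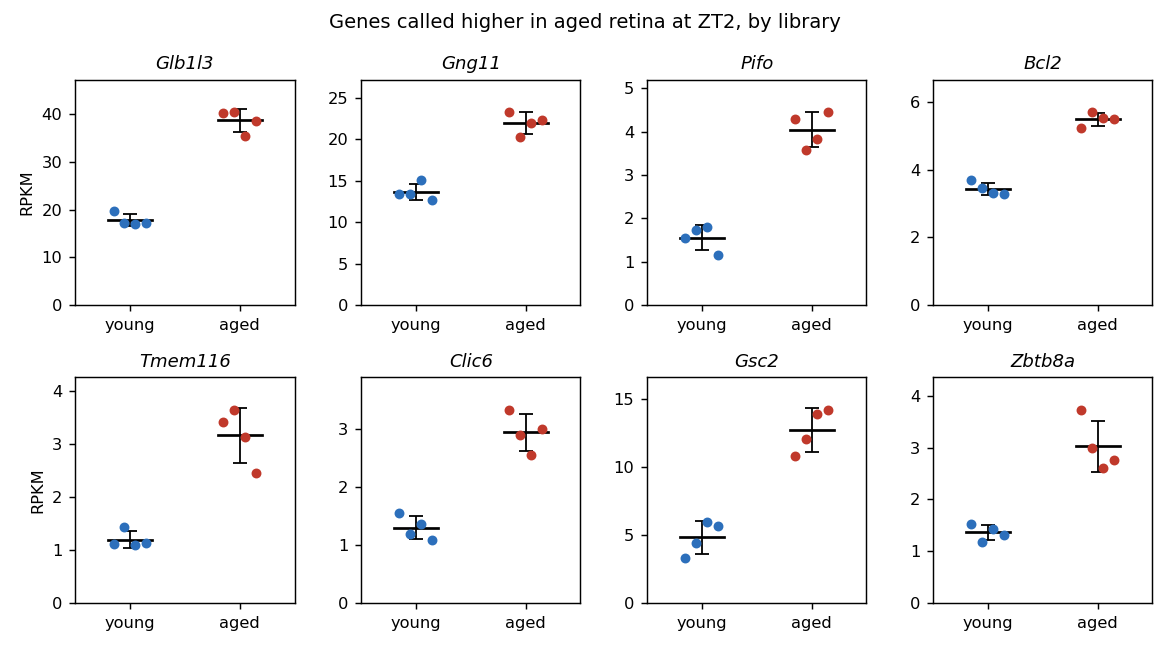
RPKM (vertical axes, each starting at 0) of the 8 called genes with an established name in the 4 young (blue) and 4 aged (red) mice at ZT2. Points are mice, the long bar is the mean and the whiskers are 1 SD. No aged point lies at or below a young point in any panel.

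The other 5 called genes were noncoding or poorly described and lie outside the rule for named genes, so they are given because the count is small. Gm33497, a long intergenic RNA, had a log2 difference of 1.19 ± 0.11 (SE) and Gm11961, an antisense RNA, 0.65 ± 0.08. The clone 2410124H12Rik rose by 1.36 ± 0.18, but it overlaps Clic6 on the same strand, so their reads could be split between them. The unnamed ENSMUSG00002076581 is listed at 0 in all young mice and met the inclusion level through the aged mice alone. Its call is thus partly built in, and its fold is not given. It was called on at least 2, 4, 2 and 2 reads in aged mice 1 to 4. These come from the smallest gene length that gives whole reads, because GENCODE M21 lacks the gene. Gm47160, an unclassified transcript, was the gene that fell, with 10.9, 12.4, 11.1 and 12.4 RPKM in aged mice 1 to 4 and 21.4, 18.7, 16.8 and 20.3 RPKM in young mice 1 to 4. Its groups did not overlap and the log2 difference was -0.70 ± 0.09 (SE), with a limma adjusted p of 0.0454. Glb1l3, Gng11, Gsc2, Gm33497 and Gm47160 overlap no other gene in GENCODE M21, whereas Bcl2, Pifo, Tmem116, Zbtb8a and Gm11961 overlap at least 1 on the opposite strand. The sources used here do not say whether counting used strand.

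The calls depended on having all 8 libraries, on the tool and on the model. Leaving out any single mouse left 1 or 2 calls, and limma voom on the recovered reads called 3. A fit with the replicate number as a block called 0. All 13 genes kept their sign in each of these fits.

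Among the genes of smallest p without a call, those of a collagen chain and of the enzyme that makes histamine were higher in every aged mouse. Col4a3 (ENSMUSG00000079465) encodes a chain of the type IV collagen network in specialised basement membranes and was at 4.53, 5.18, 3.19 and 3.40 RPKM in aged mice 1 to 4 and 1.85, 1.59, 1.57 and 1.29 RPKM in young mice 1 to 4. Col4a4, which encodes a partner chain of the same network and was named after its values were seen, was at 2.29, 2.22, 1.89 and 2.02 RPKM in aged mice 1 to 4 and 1.39, 1.37, 1.17 and 0.83 RPKM in young mice 1 to 4. Both had groups without overlap, with aged mice 1 and 2 above aged mice 3 and 4. Log2 differences were 1.12 ± 0.16 and 0.64 ± 0.13 (SE), and the limma adjusted p of 0.0665 and 0.277 missed 0.05.

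Col4a3 and Col4a4 stand head to head on chromosome 1 and start from the same short interval, which is shown because the transcripts read outwards from it in both directions. The 71 bases between their RefSeq starts lie at chr1:82586850-82586920 in build GRCm38.p6 and are printed on the minus strand, 5′ to 3′. Col4a4 begins just after the last base printed, and Col4a3 begins on the other strand before the first.
Col4a4 to Col4a3: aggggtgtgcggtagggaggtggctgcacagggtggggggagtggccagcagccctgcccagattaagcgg
None of the E-box letters CACGTG, the CCAAT box, the GC-box letters GGGCGG or the TATA-box letters TATAA, searched on both strands, is spelled out in these bases, so no letter is in capitals. Of 9937 tested genes with RefSeq windows around their starts, 11.7% held CACGTG in any window, 43.0% CCAAT, 69.3% GGGCGG and 15.7% TATAA. Those windows are longer than the 71 bases printed, so these shares are no measure of what the interval should hold. Of the 8 called genes with such a window, 4 held TATAA (2410124H12Rik, Gm11961, Gsc2 and Pifo), 3 held GGGCGG (Bcl2, Gsc2 and Tmem116), 2 held CCAAT (Gm11961 and Zbtb8a) and none held CACGTG. A match is only a run of letters, and the absence of one says nothing of a factor.

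Hdc (ENSMUSG00000027360), histidine decarboxylase, which forms histamine, was at 12.1, 12.7, 9.40 and 8.63 RPKM in aged mice 1 to 4 and 6.33, 4.99, 5.55 and 6.06 RPKM in young mice 1 to 4. Every aged mouse exceeded every young mouse, and aged mice 1 and 2 were the highest. The log2 difference of 0.83 ± 0.13 (SE) had a limma adjusted p of 0.135. The histamine receptor gene Hrh3 and the histamine-degrading enzyme gene Hnmt overlapped between ages, with log2 differences of -0.25 ± 0.28 and -0.05 ± 0.23 (SE).

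The remaining genes of smallest p without a call differed by less than 1.5-fold. Those higher in aged were Tm7sf3, a membrane protein, with 27.1, 31.5, 27.6 and 28.9 in aged and 20.7, 20.8, 21.2 and 21.9 RPKM in young retinas, Eif4e3, a cap-binding protein, and Mylip, a ubiquitin ligase that targets the LDL receptor. Tm7sf3 showed no overlap, and its log2 difference was 0.43 ± 0.06 (SE), with 0.40 ± 0.06 for Eif4e3 and 0.38 ± 0.06 for Mylip. Those lower in aged were Tmem86a, an enzyme of plasmalogen breakdown, Dennd2a, a regulator of Rab proteins, Serinc5, a lipid scramblase of the plasma membrane, Zc3h3, an RNA-binding zinc finger protein, and Cspg5, a neural proteoglycan. Dennd2a was at 2.17, 2.28, 1.98 and 2.12 in aged and 3.20, 3.41, 3.48 and 2.97 RPKM in young retinas, and Tmem86a at 6.65, 6.39, 6.98 and 6.07 in aged and 8.39, 8.82, 8.96 and 9.07 RPKM in young retinas. None of the 5 overlapped between ages, with log2 differences from -0.51 for Dennd2a to -0.35 for Zc3h3 and limma adjusted p from 0.131 to 0.196.

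The other 39 libraries of the series, from mice sampled at the 5 other times, share no animal with ZT2 and served to ask whether the same genes differ with age there. In a limma fit of age with time as a factor, 436 of the 14406 genes (3.03%) had an adjusted p under 0.05. Of the 13 genes called at ZT2, 12 passed there with the same sign, and ENSMUSG00002076581 did not. Glb1l3 differed by 1.44 ± 0.09 there, Pifo by 1.03 ± 0.12, Tmem116 by 1.09 ± 0.06, Gsc2 by 1.16 ± 0.16 and Gng11 by 0.70 ± 0.11 (log2 ± SE). Bcl2 differed by 0.43 ± 0.05 and Zbtb8a by 0.42 ± 0.06, both less than at ZT2. Col4a3 (1.11 ± 0.06), Col4a4 (0.64 ± 0.05), Hdc (1.05 ± 0.08), Tm7sf3 (0.59 ± 0.06), Eif4e3 (0.63 ± 0.06), Dennd2a (-0.51 ± 0.06) and Serinc5 (-0.65 ± 0.09), which missed the threshold at ZT2, passed at the other times. Mylip, Tmem86a, Zc3h3 and Cspg5 did not pass there, with limma adjusted p of 0.245, 0.104, 0.164 and 0.338.

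Time by time, the sign of the age difference at ZT2 was repeated at all 5 other times by 11 of the 13 called genes, at 4 by Gm47160 and at 2 by ENSMUSG00002076581. At those times Glb1l3 ranged from 1.23 at ZT10 to 1.68 at ZT6, and its ZT2 value of 1.10 was the lowest of all 6 times. Pifo ranged from 0.50 at ZT10 to 1.37 at ZT14. Zbtb8a had its highest value at ZT2, against 0.32 at ZT14 to 0.55 at ZT10.

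**Figure D4:**
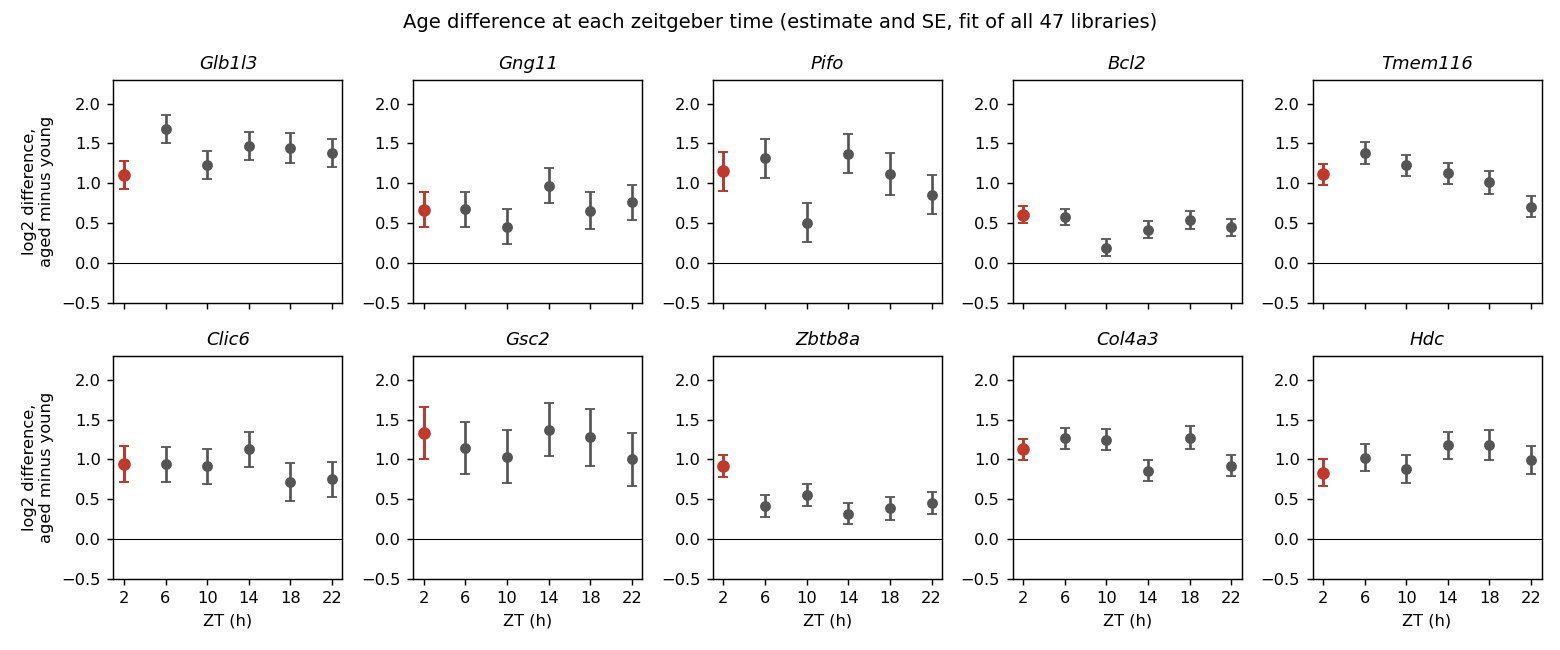
Log2 difference of aged minus young (vertical axes) at each zeitgeber time (horizontal axes, h after lights on) for the 8 called genes with an established name, Col4a3 and Hdc. Points are estimates and bars 1 SE from the fit of all 47 libraries, with ZT2 in red. All estimates lie above 0.

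Seen from the other side, genes that differed with age at the other times mostly had the same sign at ZT2. Of 267 genes higher in aged there, 246 were higher at ZT2 too (92.1%), and in 93 (34.8%) the groups of mice at ZT2 did not overlap, against 2.25% of all genes. Of 169 lower there, 156 were lower at ZT2 (92.3%), and 39 (23.1%) had no overlap, against 3.37% of all genes. Over all genes, 60.2% had the same sign at ZT2 and at the other times. The median log2 difference of these genes was 0.25 at ZT2 and 0.36 at the other times for those higher, and -0.19 and -0.28 for those lower. Across all genes the correlation of the age difference at ZT2 with that over the other times was 0.366, a description over genes that share libraries and are not independent. With single times it was 0.461 for ZT22, 0.398 for ZT14, 0.306 for ZT18, 0.266 for ZT6 and -0.237 for ZT10.

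No gene was shown to differ with age in a way particular to ZT2. The limma contrast of the age difference at ZT2 against its mean at the other times gave 0 of 14406 genes at an adjusted p under 0.05 (0%), 328 at an unadjusted p under 0.05, and a smallest adjusted p of 0.999. The gene of smallest p was Xbp1, a transcription factor of the unfolded protein response, with 15.2, 19.3, 19.00 and 15.5 in aged and 25.00, 22.95, 22.9 and 24.1 RPKM in young retinas at ZT2. Every aged mouse was below every young mouse, a log2 difference of -0.46 ± 0.09 (SE) at ZT2 against 0.02 ± 0.05 at the other times. Next came Ipo9, a nuclear import receptor (0.23 ± 0.05 at ZT2 and -0.01 ± 0.03 elsewhere), Cc2d2a, a protein of the ciliary transition zone (0.14 ± 0.06 and -0.14 ± 0.03), Armcx6 (-0.26 ± 0.11 and 0.20 ± 0.05), and Mxi1, an antagonist of Myc (-0.26 ± 0.08 and 0.02 ± 0.03).

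**Figure D5:**
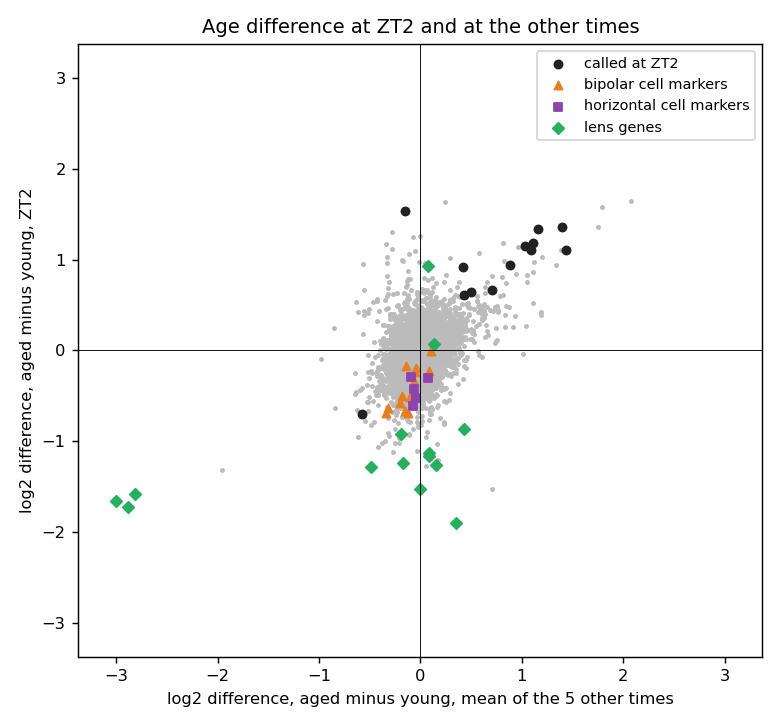
Log2 difference of aged minus young at ZT2 (vertical axis) against the same over the 5 other times (horizontal axis), 1 point per gene for 14406 genes. Called genes (black) lie in the upper right except ENSMUSG00002076581 and Gm47160, bipolar (orange) and horizontal (purple) cell markers lie below 0 at ZT2, with medians of -0.50 and -0.43 there and -0.11 and -0.06 elsewhere, and lens genes (green) scatter widely.

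Bipolar cell markers leaned lower in the aged retina at ZT2, although none passed the test over all genes. The list holds 14 genes, all measured. All 14 had a log2 difference below 0, with a median of -0.50 against -0.05 over all genes. An unadjusted p under 0.05, lower in aged, was found for 7 of 14, against 4.69% of all genes, and in 5 the groups did not overlap, against 3.37%. Apart from Otx2, the most abundant member, the members below were chosen after their values were seen.

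Grm6, the glutamate receptor with which ON bipolar cells sense rod and cone output, was at 6.31, 6.98, 6.26 and 4.31 RPKM in aged mice 1 to 4 and 9.79, 11.7, 10.5 and 7.50 RPKM in young mice 1 to 4. It was lowest in aged mouse 4, and even the highest aged mouse lay below the lowest young mouse. The log2 difference was -0.69 ± 0.17 (SE), with a limma adjusted p of 0.364. Trpm1, the channel that Grm6 signalling gates, and Gpr179, an organiser of that signalling complex, overlapped slightly, with log2 differences of -0.58 ± 0.23 and -0.64 ± 0.25 (SE). Lhx4 and Vsx1, transcription factors of cone bipolar cells, differed by -0.50 ± 0.14 and -0.51 ± 0.17, and Grik1, a kainate receptor of OFF bipolar cells, by -0.69 ± 0.24. Otx2, also expressed in photoreceptors, was at 42.6, 48.9, 54.6 and 51.1 in aged and 51.3, 50.8, 50.3 and 45.8 RPKM in young retinas, a log2 difference of -0.01 ± 0.08 (SE). Over the other times the median of the list was -0.11 and no member passed. The smallest p in the test of ZT2 against the other times was 0.166.

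Unlike ganglion and amacrine markers, the bipolar list did not split the aged mice into 1 and 2 against 3 and 4. Its mean log2 level was 3.49, 3.47, 3.42 and 2.99 in aged mice 1 to 4 and 3.78, 4.04, 3.79 and 3.47 in young mice 1 to 4, so only young mouse 4 lay within the aged range. Another fit took the mean level of the amacrine and ganglion lists as a covariate, chosen after seeing the data. There the median was -0.48 and 8 of 14 had an unadjusted p under 0.05, all lower. This was not particular to the bipolar list. In the same fit 11 of 14 lens genes, 5 of 15 Müller glia markers and 4 of 13 cone markers were lower at that p, and none of these lists had a member higher. Over all genes that fit gave an unadjusted p under 0.05, in either direction, for 2102 of 14406. The fit without the covariate gave 1117, so the counts of the 2 fits have different backgrounds.

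Horizontal cell markers showed a like lean over fewer genes. Of 5 measured members, 4 had an unadjusted p under 0.05, all lower in aged (against 4.69% of all genes), and 2 of them had no overlap (against 3.37%), with a list median of -0.43 at ZT2 and -0.06 at the other times. Sept4, the most abundant, was at 20.3, 20.3, 21.5 and 18.4 in aged and 24.4, 26.6, 24.96 and 22.8 RPKM in young retinas, a log2 difference of -0.29 ± 0.07 (SE). Calb1, the calcium-binding protein calbindin, was at 11.97, 10.8, 9.39 and 7.56 in aged and 13.4, 14.8, 11.8 and 13.6 RPKM in young retinas, with -0.43 ± 0.13 (SE) and overlapping groups. Named after their values were seen, the homeobox genes Lhx1 and Prox1 differed by -0.52 ± 0.16 and -0.61 ± 0.20, and Prox1 is expressed in bipolar and amacrine cells too.

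Müller glia markers leaned lower at ZT2 without passing, with 13 of 15 below 0. Lower in aged at an unadjusted p under 0.05 were 3 of the 15, against 4.69% of all genes, and none was higher, with a median of -0.27 at ZT2 and 0.09 at the other times. Glul, glutamine synthetase, was at 468, 394, 351 and 354 in aged and 417, 487, 419.7 and 378 RPKM in young retinas, and Car2, a carbonic anhydrase, at 212, 193, 191 and 191 in aged and 183, 189.8, 185 and 182 RPKM in young retinas. Car2 was higher in every aged mouse by a small margin, with a log2 difference of 0.09 ± 0.06 (SE). The members lower at an unadjusted p under 0.05, named for that, were Hes1, a Notch target (-0.64 ± 0.16), Vim, the filament protein vimentin (-0.38 ± 0.12), and Slc1a3, the glial glutamate transporter (-0.47 ± 0.19). Clu and Dkk3, secreted proteins, had 122, 120.1, 76.5 and 74.4 and 219, 171, 109.7 and 105 RPKM in aged mice 1 to 4, a drop between the pairs of mice that also appeared in the inner neuron markers. The part of that split in these values was not tested. Among 15 reactive gliosis genes, Lcn2 had an unadjusted p under 0.05 with aged higher, and Vim and Nes with aged lower. Over all genes these shares were 3.07% and 4.69%. At the other times 3 members passed as higher and none as lower, against 3.03% of all genes passing there.

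Photoreceptor genes were not detectably different between ages at ZT2. All 17 rod phototransduction genes had log2 differences above 0, but their median of 0.10 was small beside the range of the aged mice. Gnat1, the rod transducin alpha subunit, was at 2506, 3331, 4471 and 4363 RPKM in aged mice 1 to 4 and 3221, 3476, 3511 and 3481 RPKM in young mice 1 to 4, so that aged mice held both the lowest and the highest levels. Its log2 difference was 0.06 ± 0.21 (SE). Guca1a, an activator of guanylate cyclase named after its value was seen, was the member with an unadjusted p under 0.05, at 0.47 ± 0.19. The 13 cone markers had a median of -0.03, with Opn1sw, the short-wavelength cone pigment, at -0.18 ± 0.12. Cnga3, a cone channel subunit named after its value was seen, was the 1 cone member at an unadjusted p under 0.05, lower without overlap at -0.36 ± 0.14. The 11 outer segment structure genes had a median of 0.03, with Prph2, a disc rim protein, at 0.05 ± 0.20. At the ribbon synapse, Slc17a7, the vesicular glutamate transporter, had 0.07 ± 0.16. Lrfn2, a synaptic adhesion protein also named after its value was seen, differed by -0.58 ± 0.12 without overlap, the 1 member of 16 at an unadjusted p under 0.05. These single members stand beside 3.07% of all genes higher and 4.69% lower at that p.

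Genes of outer segment phagocytosis were of interest because shed tips are engulfed in the hours after light onset. The engulfing cells are those of the pigment epithelium, and which cells the transcripts below came from was not tested. Of 14 measured, 4 had an unadjusted p under 0.05, all lower in aged (against 4.69% of all genes), and 3 of these did not overlap (against 3.37%), with a list median of -0.10. The ligands Mfge8 and Gas6 were the most abundant and had log2 differences of -0.00 ± 0.12 and -0.08 ± 0.10 (SE). The other genes here were named after their values were seen. Itgb5, the integrin subunit that binds Mfge8, was at 8.58, 10.3, 9.21 and 8.30 in aged and 11.9, 14.3, 11.95 and 11.01 RPKM in young retinas, a log2 difference of -0.41 ± 0.10 (SE) with no overlap. Tyro3, a receptor for Gas6, was at 4.39, 3.34, 3.38 and 4.19 in aged and 6.00, 4.79, 5.03 and 5.72 RPKM in young retinas, a log2 difference of -0.45 ± 0.11 with no overlap. Ptk2, focal adhesion kinase, had -0.25 ± 0.09 and Ctsd, the lysosomal protease cathepsin D, -0.16 ± 0.06. Mertk, the receptor essential for the uptake in the pigment epithelium, was at 0.915, 0.587, 0.475 and 0.549 in aged and 0.592, 0.448, 0.53 and 0.596 RPKM in young retinas and overlapped. At the other times Tyro3 passed (-0.36 ± 0.08, limma adjusted p of 0.00464) and Itgb5 did not (-0.11 ± 0.10, limma adjusted p of 0.771). Of the 14 genes, 1 passed there as lower and 1 as higher, against 3.03% of all genes passing there. The list median was 0.04 at those times.

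Clock genes did not pass at ZT2. None of 5 activators or 8 repressors of the core clock had an unadjusted p under 0.05, and the list medians were -0.04 and -0.16. Among the repressors, Per1 was at 14.7, 11.9, 11.9 and 10.5 in aged and 12.5, 12.1, 11.7 and 11.5 RPKM in young retinas, and Per2 at 2.48, 1.88, 1.58 and 0.861 in aged and 2.52, 2.25, 1.89 and 1.82 RPKM in young retinas. Both overlapped, and Per2 was lowest in aged mouse 4. The log2 differences were 0.03 ± 0.10 for Per1, -0.30 ± 0.23 for Per2, -0.07 ± 0.07 for Cry1, -0.22 ± 0.15 for Nr1d1 and -0.17 ± 0.11 for Nr1d2 (SE), and -0.02 ± 0.08 for the activator Rorb. The other core clock genes lay between -0.19 and 0.10. The mean log2 level of the 8 repressors was 3.64, 3.47, 3.20 and 2.94 in aged and 3.46, 3.49, 3.36 and 3.45 in young mice, with aged mice 3 and 4 lowest. Of 6 clock output factors Dbp, which clock proteins drive directly, had an unadjusted p of 0.0467, with 23.5, 21.04, 16.8 and 12.7 in aged and 24.1, 25.8, 22.1 and 23.5 RPKM in young retinas. Its groups overlapped through aged mouse 1, and the log2 difference was -0.39 ± 0.17 (SE).

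In the activity and stress lists no member passed at ZT2, and their counts at an unadjusted p under 0.05 stand beside 7.75% of all genes. Atf3, an early response transcription factor named after its value was seen, was at 5.18, 5.84, 6.63 and 6.24 in aged and 4.05, 4.85, 3.61 and 4.28 RPKM in young retinas. All aged mice were above all young mice, with a log2 difference of 0.46 ± 0.11 (SE) at ZT2 and 0.49 ± 0.08 at the other times, where it passed. Of 15 immediate early genes it was the 1 with an unadjusted p under 0.05. Among 9 genes of the ATF4 stress response, Phgdh, the first enzyme of serine synthesis, was lower without overlap (-0.55 ± 0.12), and at the other times it was at 0.23 ± 0.11. The test of that difference gave an unadjusted p of 0.00356, which did not pass over all genes. Ddit4, an inhibitor of mTOR signalling, and Atf4 itself had 0.22 ± 0.07 and 0.13 ± 0.06. Of 20 heat shock and chaperone genes, Dnajb1 was higher (0.24 ± 0.08) and Hspa5, the endoplasmic reticulum chaperone BiP, lower (-0.27 ± 0.10) at an unadjusted p under 0.05.

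Class I antigen presentation genes were near even at ZT2. Of 9 class I antigen presentation genes none had an unadjusted p under 0.05, with a median of 0.03. At the other times the median was 0.38 and 4 members passed as higher, against 3.03% of all genes passing there in either direction. H2-K1, a class I heavy chain, was at 15.4, 13.7, 7.08 and 6.60 RPKM in aged mice 1 to 4 and 8.73, 9.05, 8.89 and 10.1 RPKM in young mice 1 to 4. Aged mice 1 and 2 lay above all young mice and aged mice 3 and 4 below them. B2m, the light chain, showed the same order, at 28.7, 25.8, 13.3 and 14.4 in aged and 21.5, 20.6, 18.3 and 21.3 RPKM in young retinas. H2-K1 differed by 0.12 ± 0.26 at ZT2 and 0.75 ± 0.13 at the other times, and the test of that difference gave an unadjusted p of 0.0536, the smallest of the list, so a difference between times was not shown. Class I heavy chains resemble one another and could share reads.

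No complement or microglial gene passed at ZT2. Cd59a, which blocks assembly of the membrane attack complex, was at 64.6, 71.5, 78.6 and 90.6 RPKM in aged mice 1 to 4 and 52.1, 57.4, 58.8 and 58.4 RPKM in young mice 1 to 4. Aged and young mice did not overlap, and the highest values were in aged mice 3 and 4. Its log2 difference was 0.42 ± 0.10 (SE) at ZT2, where the limma adjusted p of 0.366 did not pass, and 0.42 ± 0.06 at the other times, where it passed. C1qa, part of the first complement component, had 0.12 ± 0.16 at ZT2. Of 11 microglial and macrophage markers 10 were above 0 with a median of 0.12, and none had an unadjusted p under 0.05. Ctss, a lysosomal protease gene of microglia, was at 0.12 ± 0.11. T cell markers were at or near 0, with Cd3d listed at 0 in all 8 libraries.

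No member of the vessel, matrix and muscle lists passed, and their counts at an unadjusted p under 0.05 stand beside 7.75% of all genes. Of 9 basement membrane and matrix genes, Col4a3 and Col4a4 alone had an unadjusted p under 0.05, whereas Col4a1 and Col4a2, the chains of ordinary basement membranes, were at 1.55, 1.53, 0.567 and 0.445 in aged and 1.23, 3.00, 1.88 and 1.16 RPKM in young retinas and at 1.90, 1.80, 0.529 and 0.627 in aged and 1.62, 2.39, 1.16 and 1.79 RPKM in young retinas. Both were lowest in aged mice 3 and 4. Esam, an endothelial adhesion molecule named after its value was seen, differed by -0.73 ± 0.21 without overlap, the 1 of 6 endothelial markers at an unadjusted p under 0.05. The endothelial list mean was 1.57, 1.64, 0.70 and 0.67 in aged and 1.56, 1.21, 1.25 and 1.75 in young mice, again lowest in aged mice 3 and 4. Of 4 measured skeletal muscle genes, 3 had an unadjusted p under 0.05, with 1 higher and 2 lower in aged, against 3.07% higher and 4.69% lower of all genes. Csrp3, a muscle LIM protein and the higher member, was at 4.17, 4.68, 2.07 and 2.68 in aged and 1.48, 0.444, 1.05 and 1.06 RPKM in young retinas. Its groups did not overlap, with a log2 difference of 1.36 ± 0.28 (SE) and a limma adjusted p of 0.273, so it did not pass at ZT2. The lower members, named after their values were seen, were Tnnt1, slow muscle troponin T, with 4.80, 3.95, 4.65 and 4.40 in aged and 4.94, 5.64, 5.08 and 5.35 RPKM in young retinas, and Acta1, skeletal muscle actin, with 0.83, 0.401, 0.349 and 0.27 in aged and 0.85, 1.12, 0.52 and 1.16 RPKM in young retinas. Tnnt1 did not overlap (log2 difference of -0.22 ± 0.08, SE) and Acta1 did (-0.56 ± 0.22), and neither passed.

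No dopamine, metabolic or respiratory gene passed at ZT2. The counts below at an unadjusted p under 0.05 stand beside 3.07% of all genes higher and 4.69% lower. Drd2, a dopamine receptor, was the 1 of 9 dopamine and melatonin genes at an unadjusted p under 0.05, at -0.51 ± 0.19 (SE) without overlap. Of 18 cholesterol synthesis genes, Dhcr7 alone had an unadjusted p under 0.05 (-0.21 ± 0.09), and the list mean was 3.94, 3.71, 3.09 and 3.03 in aged mice 1 to 4, again split between mice 2 and 3, against 3.50, 3.47, 3.53 and 3.76 in young mice. Complex I genes were above 0 in 18 of 21, with a median of 0.09, and Ndufa4 and Ndufa5 had an unadjusted p under 0.05 (0.31 ± 0.13 and 0.24 ± 0.08). Igfbp7, a secreted binding protein, was lower by the largest estimate among insulin and IGF genes, -0.96 ± 0.36, with overlapping groups.

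Levels of genes typical of neighbouring tissues varied between the samples. The summed level of 14 lens genes ran from 44.01 to 2104 RPKM in aged and from 163 to 1046 RPKM in young mice, with aged mouse 3 highest and aged mice 1 and 2 lowest. In the fit without the covariate, none of the 14 had an unadjusted p under 0.05. Crystallin genes are close paralogs whose reads could be split. The 5 blood genes summed to 43.00 to 233 RPKM in aged and 20.98 to 127 RPKM in young mice. The 11 pigment epithelium markers summed to 28.3 to 42.3 RPKM in aged and 16.8 to 35.8 RPKM in young mice. Their median log2 difference was 0.01, with 6 of 11 above 0. The most abundant, Ptgds and Ttr, differed by 0.48 ± 0.26 and 0.50 ± 0.34 with overlapping groups. Pmel, a pigment granule protein named after its value was seen, was lower (-0.37 ± 0.12) without overlap. Pmel was the 1 such member of the list, against 3.37% of all genes. No corneal gene met the level for inclusion. Whether these transcripts came from those tissues or from the retina was not tested, nor was their part in the values above.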

How the data were processed

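Per the labels' protocols, RNA of single retinas was enriched for polyadenylated transcripts and copied from random primers. FastQC 0.23.4, HISAT2 2.2.1, Subread 2.0.6 and the build GRCm39 are named per the submitters' processing notes, while the role of each and the annotation were not given in the sources used here. RPKM values were deposited by the authors with 1 column per library and no pooled columns. Left unused was 1 column that could be matched to no sample. Per the labels, the authors tested age with edgeR. RPKM values are not counts, so limma 3.58.1 in R 4.3.3 was used here with their thresholds, on log2(RPKM + 0.5), with eBayes trend and Benjamini-Hochberg adjustment over 14406 genes. Fold changes on this scale understate the change of low genes.

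The ZT2 fit holds the 8 ZT2 libraries, the fit of the other times 39, and the test of ZT2 against those times all 47 as 12 group means. Whole reads, within 0.01, were recovered for 30617 of 30617 genes above 0, for 3604 of them with the smallest length that gives whole reads, so their share is partly built in. Totals were 35.3 to 45.8 M reads, and intervals were not computed because replicates set the error. Chi-square between replicates averaged 7.78 to 244.5 per gene, above sampling noise, so each library counted as 1 sample. Symbols and biotypes come from GENCODE M21, an earlier build, used for names and lengths only, and 368 tested genes have no symbol. RefSeq sequence is of GRCm38.p6.

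Members and gene lists were chosen with earlier results of these data known. Named genes were up to 15 called per direction with an established symbol and a mean of at least 1 RPKM in 1 age, by p. Where fewer than 10 were called, the next 5 by p were given as not passing. Of each list without a called member the 2 most abundant genes were eligible, as were the 5 smallest p for ZT2 against the other times and the core clock genes, some of which are given by their range. Of the 46 lists, those not mentioned in the text held no more than 2 members at an unadjusted p under 0.05. The fit was tested on simulated data. Other settings varied the offset added before the log, low-value filter, scaling, block, libraries, fold minimum and tool, and each ZT2 library was left out in turn.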

Additional observations from a re-analysis of the deposited data

Results flagged for a closer look

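In 20 of 244 screened groups of 4 mice, 1 mouse lay far from the other 3, where chance alone gives about 1 in 20 groups. Among single genes, young mouse 1 was high for Glb1l3 (19.59 RPKM, others 17.01 to 17.17) and for Cnga3 (7.895, others 6.029 to 6.336), and low for Hes1 (3.878, others 4.68 to 4.709). Young mouse 2 was high for Tmem116 (1.426 RPKM, others 1.084 to 1.131), Vsx1 (7.372, others 5.106 to 5.443) and Gpx3, an antioxidant enzyme (10.35, others 5.984 to 6.311). Young mouse 3 was high for Ddit4 (89.67 RPKM, others 74.95 to 76.35) and low for Ptk2 (3.835, others 4.689 to 4.76), and young mouse 4 was high for Lcn2 (2.488, others 1.781 to 1.894).

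In the aged group, mouse 1 was low for Ddit4 (85.91 RPKM, others 93.72 to 94.91) and mouse 2 for Serinc5 (2.823, others 3.276 to 3.291). Aged mouse 4 was low for Trpm1 (4.156 RPKM, others 6.491 to 6.925) and Drd2 (5.16, others 8.551 to 9.116) and high for Ndufa5 (54.6, others 42.71 to 43.88).

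Mean log2 levels of lists gave 6 such cases, in 4 mice. Aged mouse 1 was low for cone markers (4.977, others 5.312 to 5.349) and high for pigment epithelium markers (1.324, others 0.9455 to 0.9866) and antioxidant genes (3.57, others 3.3 to 3.342). Aged mouse 4 was low for bipolar cell markers (2.991, others 3.423 to 3.495). Young mouse 1 was low for mitochondrially encoded genes (7.951, others 8.676 to 8.736) and young mouse 4 for lens genes (3.004, others 4.726 to 4.934).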

How the results depend on the processing

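The 13 calls (12 higher, 1 lower) became 2 (1 and 1) without a filter, 3 (3 and 0) with limma voom on recovered reads, and 40 (36 and 4) with 45 libraries as 12 group means, which leaves out replicate 4 of young ZT10 and replicate 3 of aged ZT6. The fit of all 47 libraries called 19, all 19 higher and 0 lower, of which 7 are among the 13. Median-ratio scaling and quantile normalization called 13 and 17 higher and 0 lower. With the amacrine and ganglion covariate, chosen after seeing the data, 36 were called (32 and 4). Leaving out each ZT2 library in turn, aged or young, gave 1 to 2 calls, 1 to 2 higher and 0 to 0 lower. Without aged replicate 1 an unadjusted p under 0.05 was found for 2361 genes, and without another single library for 761 to 1191. A fit with the replicate number as a block called 0 genes, 0 higher and 0 lower, with 853 at an unadjusted p under 0.05. Samples of the same number had correlations of their deviations from -0.311 to 0.132, and aged replicate 1 correlated best with young replicate 4. These correlations follow the split among the aged mice, so they cannot show whether the numbers pair the mice. The other settings stayed within 1.5 times. All 13 genes kept their sign wherever tested. The test of ZT2 against the other times gave 1 gene without a filter and 0 under every other setting, the replicate block included. Among 79 genes followed in every setting, 144 values were classed as weaker, 37 as stronger and 0 as reversed. That class does not show that estimates near 0 kept their sign. The cause of these changes was not tested. With 4 mice per age and the spread of the aged group, small differences were not detectable, and genes at a few reads, such as ENSMUSG00002076581, are uncertain.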

Other observations

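A fit that adds the mean level of the amacrine and ganglion cell markers as a covariate, chosen after seeing the data, compares the ages at an equal level of these inner retinal transcripts. It called 36 genes, 32 higher and 4 lower in aged, among them all 13 of the fit without the covariate. The genes named here were chosen after their values were seen. Hdc (0.92 ± 0.08), Col4a3 (1.20 ± 0.13), Csrp3 (1.52 ± 0.21), Ly75, an endocytic receptor of immune cells (1.17 ± 0.13), Prok1, a secreted prokineticin (0.98 ± 0.13), and the class I heavy chain gene H2-Q4 (0.63 ± 0.10) were among those higher (log2 ± SE), with limma adjusted p from 0.0049 to 0.0338. Htra1, a secreted serine protease, and Mylk, myosin light chain kinase, were among the lower ones, at -0.64 ± 0.07 and -0.60 ± 0.09. Htra1 was at 10.3, 11.5, 14.9 and 12.8 RPKM in aged mice 1 to 4 and 17.9, 19.9, 17.7 and 18.6 RPKM in young mice 1 to 4. The groups did not overlap for Htra1, and without the covariate it had a log2 difference of -0.57 ± 0.11 (SE) and a limma adjusted p of 0.21. The covariate comes from the same libraries as the values it adjusts.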
